A study of Homo sapiens with 4 samples.

Results

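Chromosome 1 is the longest human chromosome, and in these contact maps it was covered by 1144 of the 14444 bins of about 200 kb into which the genome (build hg19) was divided. Its short (p) arm held 608 bins and its long (q) arm 536. The 70 bins of chr1:185989243-199999730 on the q arm (band 1q31) are called the hub here. These limits were chosen by measured values: the hub is where the densest set of contact increases lay in senescent cells, OIS minus Grow, so every value of that comparison within the hub describes the selection. The comparison of the HMGA1-depleted maps, OIS-shA1 minus Grow-shA1, shares no map with it and played no part in the choice.

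The cells of the 4 samples were IMR90, a normal human diploid lung fibroblast line. They carried pLNCX2 ER:HRAS G12V, a fusion of oncogenic HRAS to an oestrogen receptor domain that 4-hydroxytamoxifen (4OHT) switches on. The 4 samples of the series also carried pMSCV miR shHMGA1, a retroviral short hairpin against HMGA1 (shA1): 2 were proliferating (Grow-shA1) and 2 had received 100 nM 4OHT for 6 days (OIS-shA1, oncogene-induced senescence). The deposited maps pool the 2 samples of each condition, and the matching maps without the hairpin, Grow and OIS, were made by the laboratory for previous work, from samples outside this series. There was thus 1 map per condition, no spread between cultures and no test between conditions, and maps with and without the hairpin also differ in data set, which cannot be told apart. The paper describes the earlier maps as matching ones from IMR90 cells. The labels of this series do not give their constructs, control vector, 4OHT dose or day. Each hairpin comparison shares a map with each RAS comparison, so their values are set side by side and are not independent. The contact maps carry no marker of the labelled cell type, and HMGA1 itself cannot be checked in them.

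Interphase chromosomes divide into A compartments, which are gene-rich and active, and B compartments, which are gene-poor and often held at the nuclear lamina. Bins of the same kind contact each other more than bins of different kinds. In RAS-induced senescence of fibroblasts, heterochromatin gathers into microscopically visible senescence-associated heterochromatic foci, and HMGA1, a small architectural protein whose AT-hooks bind the minor groove of A/T-rich DNA, is a known component of these foci.

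The hub was poor in genes and rich in A and T. It held 38 protein-coding gene starts, 2.71 per Mb, against 9.29 per Mb over chromosome 1 and 7.09 over the autosomes and X. Its GC content was 35.3% (chromosome 1, 41.7%), and 7.74% of its bases lay in unbroken runs of A or T of 10 bases or more (chromosome 1, 4.92%). HindIII, the enzyme that cut the chromatin, had 322 sites per Mb there and 286 over the chromosome. In the Grow map 23 of its bins were A and 47 were B. Of its 70 bins, 50 held no protein-coding gene start.

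Sequence windows of 150 bases from the middle of 3 bins are printed to show the A/T runs, with runs of A or T of at least 6 bases in capitals (reference GRCh37, + strand). The first lies in the hub bin that took part in the most contact increases in OIS, chr1:198500059-198500208, in the bin of ATP6V1G3. The second is the middle of the A bin of PRG4 and TPR, chr1:186298666-186298815, which with 5 gene starts is tied with 1 other A bin for the most in the hub. The third, for contrast, comes from the gene-rich stretch that follows the hub, chr1:202897732-202897881.

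Hub bin with the most increases: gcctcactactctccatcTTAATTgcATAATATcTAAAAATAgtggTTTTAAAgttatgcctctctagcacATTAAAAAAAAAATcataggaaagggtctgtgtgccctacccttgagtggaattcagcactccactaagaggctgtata
Hub A bin of PRG4 and TPR: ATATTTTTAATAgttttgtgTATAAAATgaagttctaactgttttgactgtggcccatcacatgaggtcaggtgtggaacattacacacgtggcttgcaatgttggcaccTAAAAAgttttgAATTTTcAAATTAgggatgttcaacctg
Gene-rich bin beyond the hub: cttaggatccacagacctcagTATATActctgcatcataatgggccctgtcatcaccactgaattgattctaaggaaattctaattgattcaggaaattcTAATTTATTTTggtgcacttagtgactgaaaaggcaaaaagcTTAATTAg

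The capitals covered 42 and 38 bases of the hub windows and 24 of the third, and the whole bins had a GC content of 36.2%, 36.5% and 44.4%. The windows themselves had 38%, 36% and 36%, so the third window does not show the higher GC content of its bin. The bins end at HindIII sites, and the sites at the first and last edge of the hub are shown with the recognition sequence in capitals, since they fix where the hub begins and ends in the maps (chr1:185989215-185989274 and chr1:199999703-199999762, + strand).

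First edge: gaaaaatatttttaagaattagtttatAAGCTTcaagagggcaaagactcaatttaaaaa
Last edge: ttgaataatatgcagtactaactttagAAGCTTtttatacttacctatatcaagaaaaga

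Contact values are scores that the authors balanced and corrected for distance, so that 0 stands for the usual contact at that separation. They behave like logarithms, but their base is not given in the sources used here, so differences are in score units and are not fold changes. Values are means with the SD over pairs of bins or over bins, which share libraries and are not replicates. The files hold no read counts. The paper reports more reads for Grow-shA1 than for OIS-shA1, so the maps of that RAS comparison also differ in depth. It gives no read number for the earlier Grow and OIS maps. The number of bin pairs listed on chromosome 1 was 503759 in Grow, 465151 in Grow-shA1, 412761 in OIS and 409996 in OIS-shA1. All pairs within the hub were listed in all 4 maps, but pairs between the arms were listed less completely, from 54.1% in OIS-shA1 to 73.9% in Grow. Of the 1144 bins, 993 had at least 50% of their pairs listed in each map and were kept, including all 70 of the hub. The 151 others were mostly near the p-arm end (79 before 30 Mb) and on the q arm beside the centromere (33). A further 17 lay in a gene-poor stretch of the p arm, chr1:102002660-109400548.

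The hub contacted itself far more in the senescent map than in the proliferating map. Over its 1799 pairs more than 2 Mb apart, the mean score was 0.78 in Grow, 0.47 in Grow-shA1, 1.78 in OIS and 1.301 in OIS-shA1. Both maps of RAS-expressing cells thus lay above both proliferating maps, and each shA1 map lay below its counterpart. OIS minus Grow, which selected the hub, was 0.999 ± 0.68 (SD over pairs). OIS-shA1 minus Grow-shA1, which did not, was 0.83 ± 0.66, with 88.9% of pairs above 0. The difference between these 2 differences was -0.17. The hairpin difference was -0.48 ± 0.41 in RAS-expressing cells (OIS-shA1 minus OIS) and -0.31 ± 0.33 in proliferating cells (Grow-shA1 minus Grow), so lower contact with the hairpin was seen in both states.

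The gain was seen in long-range pairs. Pairs 2 Mb or less apart (616 pairs) scored 1.27 in Grow, 0.89 in Grow-shA1, 0.98 in OIS and 0.72 in OIS-shA1. Here the RAS differences were negative, -0.29 and, with shA1, -0.17. This was not particular to the hub. Local A-A, A-B and B-B pairs of the p arm and of the q arm without the hub were lower too. Their RAS differences ran from -0.43 to -0.24 and, with shA1, from -0.30 to -0.13. Within the hub, the RAS differences from 2 to 5 Mb were 0.64 and 0.55, from 5 to 10 Mb 1.28 and 1.03, and over 10 Mb 1.26 and 1.147. The hairpin differences were negative in every one of these distance classes, in both cell states, ranging from -0.27 to -0.56.

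By compartment, the gain was largest between B bins. Hub B bins scored 1.24 with each other in Grow, 0.93 in Grow-shA1, 2.56 in OIS and 2.07 in OIS-shA1 (733 pairs), a RAS difference of 1.32 without and 1.14 with shA1. Hub A bins scored 0.77, 0.59, 1.398 and 1.23 in the same order (165 pairs), with RAS differences of 0.63 and 0.64. A bins with B bins scored 0.41, 0.07, 1.21 and 0.69 (901 pairs), differences of 0.80 and 0.62. All 3 classes were thus higher in the RAS maps, the mixed class included.

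The same hub scores were also counted pair by pair, which is no separate support. A pair was called where its score differed by at least 1.0, among pairs 2 to 14 Mb apart. In OIS minus Grow 940 of the 1799 hub pairs (52.3%) were called higher and 0 lower, against 2.33% and 9.66% of all pairs of the genome at these distances. That comparison chose the hub, so nothing is read from its share. In OIS-shA1 minus Grow-shA1 731 hub pairs (40.6%) were called higher and 4 lower, against 3.4% and 9.03%. In OIS-shA1 minus OIS 182 (10.1%) were called lower and 0 higher, against 3.95% lower and 4.07% higher. In Grow-shA1 minus Grow 47 (2.61%) were called lower and 0 higher, against 1.24% lower and 0.615% higher. In these last 3 comparisons the hub's share lay above the background in the direction given first. With each map scaled by its SD at the same distance, the shares were 25.3% in OIS-shA1 minus Grow-shA1 and 3.72% in OIS-shA1 minus OIS, the latter no longer above the 3.95% of the unscaled maps. The background on that scale was not computed. The hairpin comparisons each use 1 of the maps that chose the hub, so their values are not independent of the choice either.

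The edges of the hub were not sharp in the maps. At the first edge, contact with the hub of the first 1 Mb inside differed by 0.56 in OIS minus Grow and by 0.42 with shA1, and that of the 1 Mb just outside by 0.32 and -0.061. At the last edge the last 1 Mb inside differed by 1.06 and 0.83, and the 1 Mb just outside by 0.44 and 0.34. These are values just inside and just outside the limits that chose the members, and are given as a description.

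**Figure D1:**
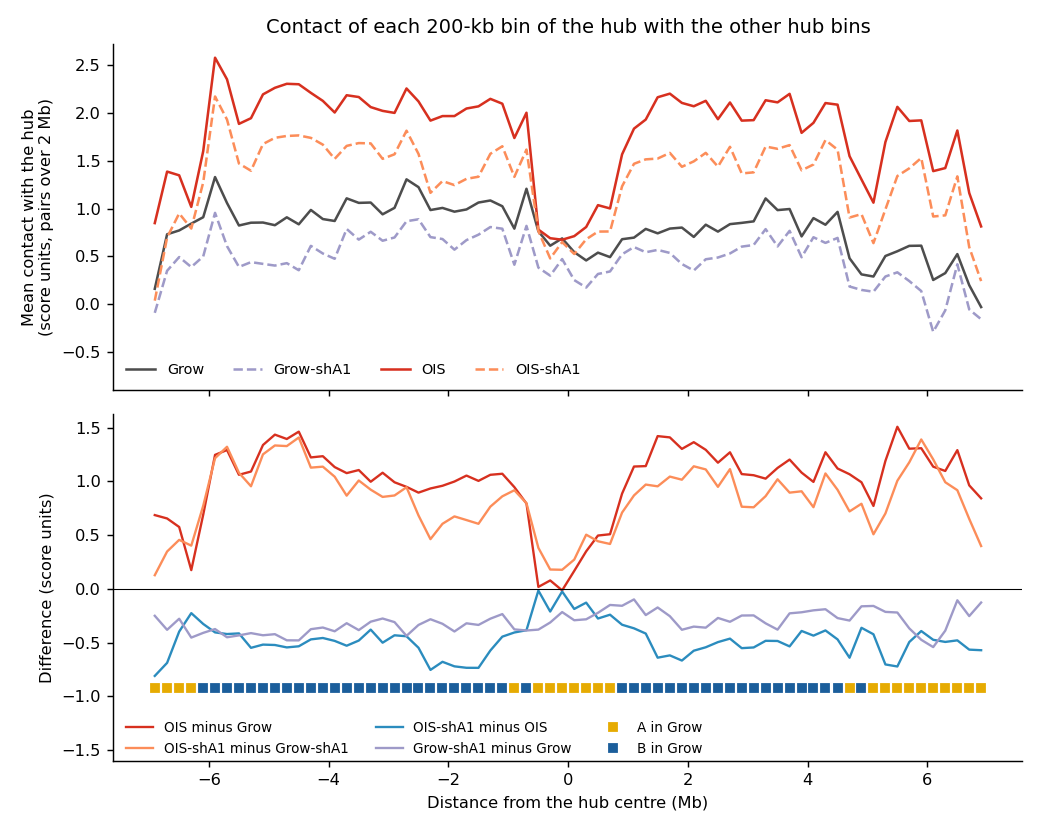
Mean contact of each of the 70 hub bins with hub bins more than 2 Mb away, in score units, against distance from the hub centre in Mb, for the 4 maps (top) and as 4 differences (bottom, with squares for the A or B compartment in Grow). OIS minus Grow is high on both sides and between -0.014 and 0.51 in the A stretch at the centre, and both hairpin differences are below 0 in all 70 bins.

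Within the hub the gain was uneven. In OIS minus Grow 69 of 70 bins lay above 0, and with shA1 all 70 did, ranging from 0.13 to 1.41 with a mean of 0.84 ± 0.31 (SD over bins). Both hairpin differences were below 0 in all 70 bins. In OIS minus Grow 7 of the 8 lowest bins formed a run of A bins at the centre, chr1:192404457-193801177, with a mean GC content of 36.95% and 8 gene starts. This stretch was singled out after its values were seen.

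The central stretch held genes of the RGS family, which switch off G-protein signalling by speeding GTP hydrolysis. The RGS1 bin scored 0.76 with the hub in Grow, 0.38 in Grow-shA1, 0.78 in OIS and 0.76 in OIS-shA1. Its RAS difference was close to 0 without the hairpin (0.018) and 0.38 with it. The bin of RGS13 and RGS2 scored 0.61, 0.30, 0.69 and 0.48 in that order, RAS differences of 0.078 and 0.18. RGS18 and RGS21, of the same family but in the 2 bins just before, lay nearer the hub mean, with RAS differences of 0.95 and 0.92 for RGS18 and 0.79 and 0.80 for RGS21.

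A bin further on in the stretch carried UCHL5 (a deubiquitinase of the proteasome), RO60 (an RNA-binding autoantigen), GLRX2 (a mitochondrial glutaredoxin), CDC73 (a subunit of the PAF1 transcription complex) and B3GALT2 (a galactosyltransferase), 5 starts in 1 bin. It scored 0.54, 0.25, 0.71 and 0.52 in Grow, Grow-shA1, OIS and OIS-shA1, with RAS differences of 0.17 and 0.27. Together the 7 bins scored 0.59, 0.32, 0.81 and 0.66 with the rest of the hub (349 pairs), a RAS difference of 0.23 and, with shA1, 0.34.

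The central stretch separated 2 sides, and of the parts of the hub set against each other, the pair of sides showed the largest gain. The first side (32 bins) scored 0.91 with the last side (31 bins) in Grow, 0.63 in Grow-shA1, 2.32 in OIS and 1.76 in OIS-shA1 (987 pairs). The RAS difference was 1.41 ± 0.49, and 1.13 ± 0.57 with shA1. Within the first side it was 0.48 and 0.48, and within the last 0.93 and 0.65. Restricted to pairs 2 to 7 Mb apart, a span that pairs within a side also cover, the difference between sides was 1.45 and 1.13 (391 pairs). These values lay above those within either side, but pair distances inside that span were not matched. The gain itself rose with distance, and the stretch dividing the sides was singled out after its values were seen. Distance and side therefore cannot be told apart here. The last side started from a low level, 0.076 in Grow and -0.20 in Grow-shA1, against 1.19 and 0.63 for the first.

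At the first edge of the hub lay a gene cluster with modest gains. The bin of PRG4 (lubricin) and TPR (a nuclear pore basket protein) scored 0.73, 0.35, 1.39 and 0.70 across Grow, Grow-shA1, OIS and OIS-shA1, with RAS differences of 0.66 and 0.35. PDC (phosducin) came next, with 0.58 and 0.46. The bin of PTGS2 (cyclooxygenase-2, the inducible enzyme of prostaglandin synthesis) and PLA2G4A (the cytosolic phospholipase A2 that supplies its substrate) scored 0.84, 0.39, 1.02 and 0.79. Its OIS minus Grow difference of 0.17 ranked 66th of the 70 bins, and with shA1 it was 0.40.

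Of the 5 bins with the largest OIS-shA1 minus Grow-shA1 difference, 4 lay in the gene desert that follows, between 187199842 and 188600296, and 1 near the last edge, from 198799234 to 198999557. None held a protein-coding gene start, but neither did 50 of all 70 hub bins. The highest, from 188397613 to 188600296, scored 0.84, 0.36, 2.30 and 1.76, a difference of 1.41 with the hairpin. The 5 lowest were the first bin of the hub, the PRG4 bin and 3 bins of the central stretch, with differences from 0.13 to 0.35. Among them the first bin and chr1:192799740-192999174 also held no gene start.

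The last side held 19 of the 38 gene starts of the hub. The bin of ASPM (a spindle pole protein of dividing cells), F13B (a subunit of coagulation factor XIII) and ZBTB41 scored 0.90, 0.70, 1.90 and 1.46, differences of 0.995 and 0.76. Named after their values were seen, CRB1 (an apical polarity protein) differed by 1.27 and 1.07 and KCNT2 (a sodium-activated potassium channel) by 1.13 and 1.02.

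Some A bins of the last side had differences as large as the B bins. The bin of PTPRC, which encodes the leukocyte phosphatase CD45, scored 0.61, 0.24, 1.91 and 1.42, RAS differences of 1.304 and 1.18. ATP6V1G3, a subunit of the vacuolar proton pump, lay in the bin with the highest OIS minus Grow value, 1.51, and it took part in 35 of the 2444 largest increases of the chromosome. With shA1 its RAS difference was 1.01. NEK7, a kinase, differed by 0.77 and 0.51, DENND1B, an exchange factor for RAB35, by 1.07 and 0.72, and NR5A2, a nuclear receptor at the last edge, by 0.84 and 0.40.

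Over the 70 bins, the gain went with base composition. Pearson's r between the RAS difference and GC content was -0.51 without and -0.51 with shA1 (Spearman's rho -0.42 and -0.43), and r with the number of gene starts was -0.34 in both. The hairpin differences went the other way, with r of 0.38 with GC in OIS and 0.38 in Grow. Neighbouring bins share contacts and sequence, and HindIII site density also follows base composition, so these are descriptions, and the part of either in the differences was not tested.

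While the hub gained contact with itself, it lost contact with the rest of the q arm. Its mean score with q-arm B bins outside it was 0.27 in Grow, 0.45 in Grow-shA1, -0.39 in OIS and -0.099 in OIS-shA1 (13307 pairs), above 0 in both proliferating maps and below 0 in both RAS maps. The RAS difference was -0.67 ± 0.69 without and -0.55 ± 0.66 with shA1. With q-arm A bins it scored -0.095, -0.16, -0.37 and -0.30, differences of -0.28 and -0.14. OIS-shA1 minus OIS was 0.29 with B bins and 0.075 with A bins. Matrix balancing gives every bin the same total contact, so gains inside the hub and losses outside it are tied to each other in the values, and they cannot be told apart.

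**Figure D2:**
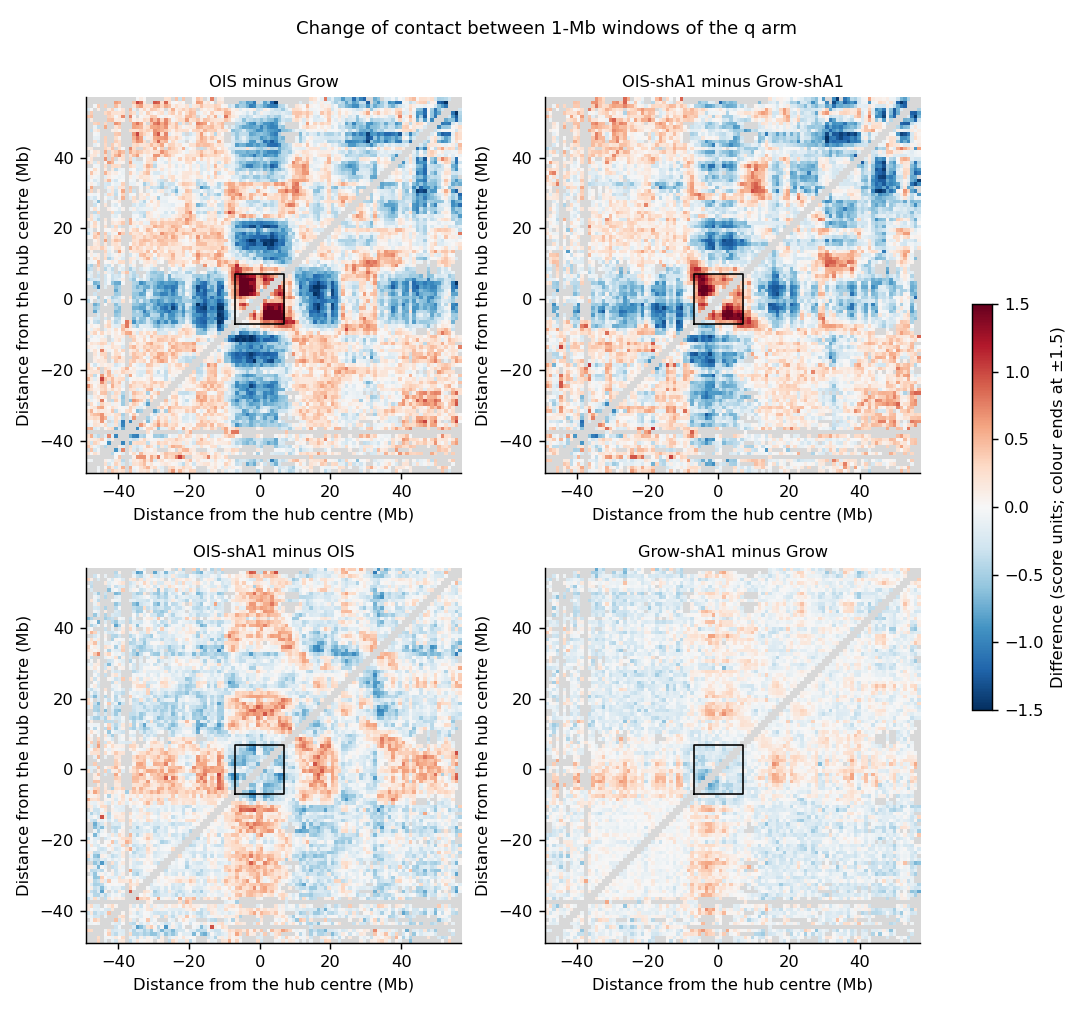
Mean difference of score between 1-Mb windows of the q arm, both axes in Mb from the hub centre, for the 4 comparisons. The outlined hub is red in both RAS comparisons and sits at the crossing of blue bands, the colours turn over in OIS-shA1 minus OIS, and Grow-shA1 minus Grow is the palest panel.

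The loss covered most of the arm. Of 426 q-arm bins outside the hub, 362 had lower contact with it in OIS minus Grow (median -0.54) and 368 in OIS-shA1 minus Grow-shA1 (median -0.36). In OIS-shA1 minus OIS 336 bins lay above 0 (median 0.26), and in Grow-shA1 minus Grow 286 did (median 0.072). In 5-Mb windows, the lowest OIS minus Grow values were in those starting at 175 Mb (-0.98), 205 Mb (-0.97) and 210 Mb (-0.93), where with shA1 the differences were -0.73, -0.73 and -0.64. From 175 to 180 Mb the score went from 0.21 in Grow and 0.36 in Grow-shA1 to -0.77 in OIS and -0.37 in OIS-shA1.

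A few windows stood apart from this loss. The gene-poor block of the q arm at chr1:214991150-220203069 was the exception nearest in kind to the hub. The 5-Mb window that holds most of it scored 0.54 with the hub in Grow, 0.57 in Grow-shA1, 0.52 in OIS and 0.35 in OIS-shA1. Its OIS minus Grow difference was -0.018, and with shA1 it was -0.22. The next 5-Mb window, from 220 Mb, scored 0.092, 0.090, 0.26 and 0.13. The gene-rich window that borders the hub, from 200 to 205 Mb with 60 gene starts, was avoided in all 4 maps, at -0.87, -0.97, -0.80 and -0.86. Low contact beside the hub was thus present in proliferating cells too.

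With the p arm the hub's contact changed less than with the q arm. Of 484 p-arm bins, 330 lay below 0 in OIS minus Grow (median -0.095) and 297 with shA1 (median -0.059). Only 22.4% of the possible pairs were listed in all 4 maps (7806 pairs), and their mean was 0.028, -0.0032, 0.0087 and -0.045 in Grow, Grow-shA1, OIS and OIS-shA1. Windows differed in direction. At 95 to 100 Mb the score was -0.027 in Grow, -0.071 in Grow-shA1, 0.23 in OIS and -0.012 in OIS-shA1, so the OIS map alone stood out. At 80 to 85 Mb the values were 0.057, 0.0075, 0.22 and 0.025, the same pattern. At 55 to 60 Mb they were 0.095, 0.11, -0.17 and -0.079.

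**Figure D3:**
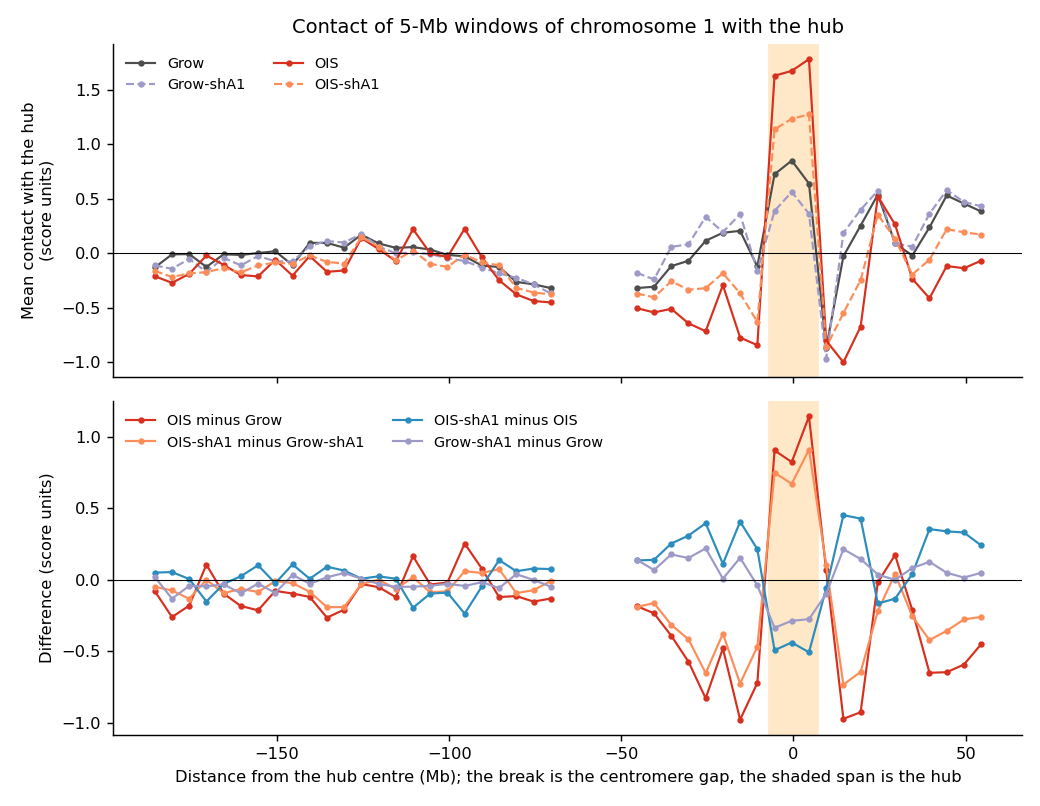
Mean contact of 5-Mb windows of chromosome 1 with the hub in the 4 maps (top) and the 4 differences (bottom), in score units, against distance from the hub centre in Mb, with the hub shaded and the centromere as the break. Contact of most q-arm windows was lower in the RAS maps, with exceptions just after the hub and around the next gene-poor block, and p-arm windows lay between -0.45 and 0.23.

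The first and the second of these windows lie in gene-poor blocks. Under the wider rule for such blocks (under 1 gene start per bin), chromosome 1 had 6 besides the hub, 4 on the p arm. The hub with chr1:95198188-100598665 differed by 0.27 in OIS minus Grow, 0.058 with shA1 and -0.25 in OIS-shA1 minus OIS (938 pairs, 49.6% of those possible). P-arm blocks differed among themselves: that block with chr1:67199763-76002219 differed by 0.61 without and 0.42 with shA1, and with chr1:77396914-84596356 by 0.52 and 0.20, but chr1:57599434-64398924 with chr1:67199763-76002219 by -0.25 and -0.16. Between chr1:67199763-76002219 and chr1:77396914-84596356 the differences were 0.42 and 0.50. The block chr1:57599434-64398924 differed by 0.023 and 0.068 with chr1:77396914-84596356, and by 0.18 and 0.17 with chr1:95198188-100598665. On the q arm the hub with chr1:236199456-245000253 differed by -0.65 and -0.33.

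The hub was set beside other gene-poor blocks. Under the main rule (runs of at least 25 bins with a running mean under 0.8 gene starts per bin), 75 other blocks lay on the autosomes and X, of which 1 was on chromosome 1. To compare blocks of unequal length, pairs 2 to 5 Mb apart were used. In OIS minus Grow the hub had the highest value of the 76 (the second highest with each map scaled by its SD), 0.64, where the others had a median of -0.20 and reached 0.52 on chromosome 4. The hub's limits were chosen by that comparison and those of the other blocks were not, so nothing is read from this rank. With shA1 the hub was second, 0.55 against a median of 0.091 and a highest value of 0.57 on chromosome 8. In OIS-shA1 minus OIS it was the lowest (the second lowest under the wider rule, where a block on chromosome 11 had -0.418), -0.41, against a median of 0.15 and a lowest value of -0.28 on chromosome X. In Grow-shA1 minus Grow it was the second lowest, -0.32 against a median of -0.094. Each hairpin comparison uses a map that chose the hub, so these ranks are not independent of the choice.

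At 2 to 5 Mb the hub's mean was 0.77 in Grow and 1.41 in OIS, 26th and 5th from the top. These maps chose the hub, so nothing is read from their ranks. In Grow-shA1 and OIS-shA1, which did not, its mean was 0.45 and 0.999, 31st and 16th from the top. In GC content the hub was the second lowest of the 76 blocks, at 35.3% against a median of 37.1%. The block chr1:214991150-220203069, the other gene-poor block of the chromosome under this rule, scored 0.87, 0.90, 0.97 and 0.99 within itself in Grow, Grow-shA1, OIS and OIS-shA1, RAS differences of 0.11 and 0.094. The p-arm stretch chr1:102002660-109400548 was closer to the hub in composition, with 2.59 gene starts per Mb, 36.0% GC and 7.25% in A/T runs. It was not among the blocks compared. Of its 37 bins 20 were kept, fewer than the 25 that a block needed.

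**Figure D4:**
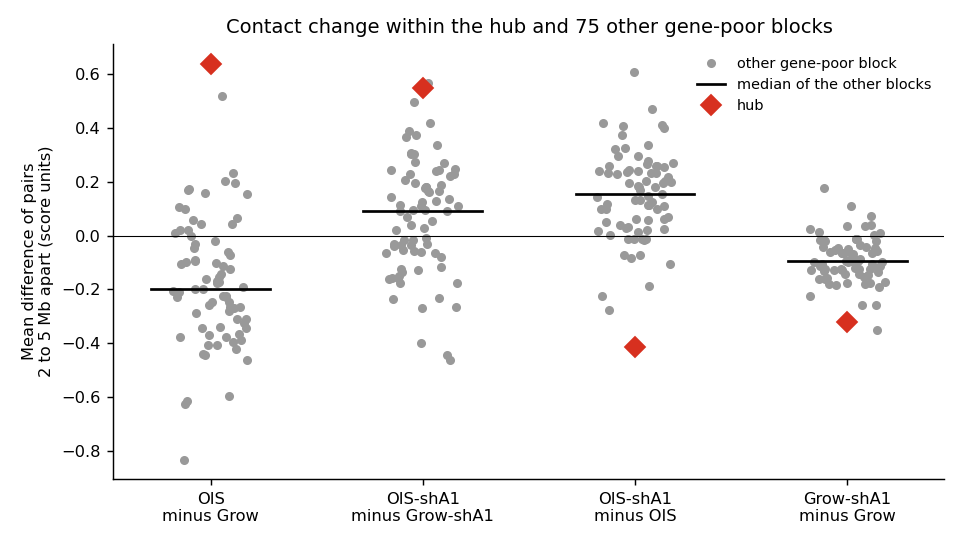
Mean difference of score of pairs 2 to 5 Mb apart within the hub (diamond) and within each of 75 other gene-poor blocks (points, with their median as a line), for the 4 comparisons. The hub lies at 0.64 and 0.55 in the RAS comparisons and at -0.41 and -0.32 in the hairpin comparisons. Each value is at or next to the end of the range. OIS minus Grow chose the hub, and each hairpin comparison shares a map with it.

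The largest increases were also read as a graph. The 1% of distal pairs of chromosome 1 with the largest increase (2444 pairs) were drawn as edges, and the k-core is the largest set of bins that each keep at least k edges within the set. In OIS minus Grow, the comparison that chose the hub, k was 15 with 32 bins, all in the hub. In OIS-shA1 minus Grow-shA1 k was 10 with 27 bins, again all in the hub, and 12.6% of the edges joined hub bins, which make up 0.736% of the pairs. Of the core bins 25 were shared, 78.1% of the first and 92.6% of the second core. In OIS-shA1 minus OIS and Grow-shA1 minus Grow k was 4, and no edge lay within the hub. That follows from the called pairs: edges there were rises of at least 1.41 and 1.07, and 0 hub pairs rose by 1.0. These cores held 69 and 50 hub bins, through edges to bins outside the hub. The hub core of the RAS comparisons depended on the scale. When each map was divided by its SD at the same distance, k was 4 in both RAS comparisons. No core bin then lay in the hub, and 0.164% of edges joined hub bins.

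The arms differed in this respect. Within the p arm alone k was 4 in both RAS comparisons, with 81 and 82 bins spread over much of the arm. Within the q arm k was 12 and 9, and without the hub it was 3 in both. On these scores all core bins of the q arm lay in the hub, 33 and 26. Averaging changes over 3 by 3 pairs gave k of 9 and 11 on the p arm, with 45 and 26 core bins. On the q arm it gave 23 and 18, with 51 and 38 core bins, all in the hub. The paper, from its own contact changes, describes a dense cluster on both arms of chromosome 1. It names the core of this chromosome the most prominent of all, in regions rich in HMGA1 but depleted of H3K9me3. Its edges are differential interactions, not the 1% of pairs used here, so its k cannot be set beside these. With each map scaled by its SD the q arm had k of 3 and 4, with 12 of 269 and 0 of 54 core bins in the hub, and the p arm had k of 3 in both, so neither the core nor the difference between the arms was seen there.

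Arm by arm, compartment contrast changed little on these scores. For pairs over 2 Mb apart, strength is the mean of A-A and B-B scores minus the A-B score. On the p arm it was 0.75 in Grow, 0.83 in Grow-shA1, 0.76 in OIS and 0.80 in OIS-shA1, and on the q arm 0.70, 0.77, 0.72 and 0.76. The RAS differences were 0.011 and -0.035 on the p arm and 0.024 and -0.011 on the q arm, smaller than the SD over the 23 chromosomes examined (0.062 and 0.082). Of 10 alternatives, the sign of OIS minus Grow changed in 5 on the p arm and 3 on the q arm. That of OIS-shA1 minus Grow-shA1 changed in 1 on each. With each map scaled by its SD the RAS differences were -0.15 and -0.14 (p arm) and -0.13 and -0.098 (q arm). With compartments from each map they were 0.072 and 0.041 (p arm) and 0.18 and 0.072 (q arm). Their size was thus no more settled than their sign. Of the A-B pairs 56.5% (p arm) and 67.2% (q arm) were listed in all 4 maps, against 86.5% to 92.9% of A-A and B-B pairs, so the A-B means leave out more pairs.

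The q-arm values differed with and without the hub. Q-arm B-B contact was 0.67 in Grow, 0.64 in Grow-shA1, 0.53 in OIS and 0.45 in OIS-shA1, a RAS difference of -0.14 and, with shA1, -0.20. Without the hub the B-B means were 0.75, 0.63, 0.81 and 0.57, differences of 0.059 and -0.057. The lower B-B contact of the arm in OIS minus Grow was thus not seen among its other bins. Strength without the hub was 0.76, 0.79, 0.85 and 0.83, a RAS difference of 0.090 that turned to -0.083 when each map was scaled by its SD. The p arm had B-B means of 0.62, 0.55, 0.61 and 0.53.

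**Figure D5:**
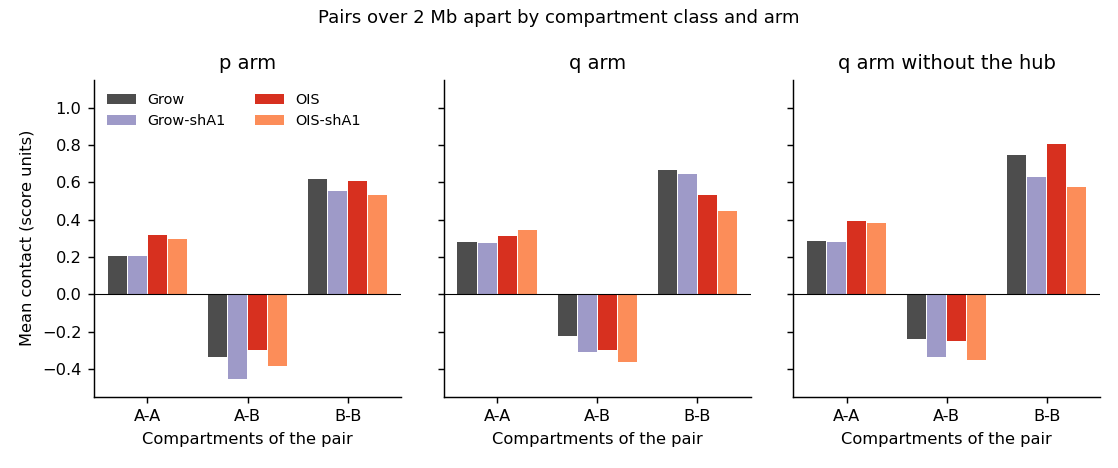
Mean score of distal pairs by compartment class for the p arm, the q arm and the q arm without the hub, with 1 bar per map starting at 0. B-B bars of the q arm are lower in OIS than in Grow (0.53 and 0.67) with the hub and higher (0.81 and 0.75) without it.

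Over the whole chromosome, against other chromosomes, OIS minus Grow strength was -0.0034, 21st of 23 from the top (median 0.082), and OIS-shA1 minus OIS was 0.037, the highest of the 23 (median -0.041). These ranks carry no test.

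The sign of the first principal component, which assigns compartments, differed between the maps in the hub. In Grow 23 of the 70 bins were positive (A), in Grow-shA1 20, in OIS 68 and in OIS-shA1 27. In OIS minus Grow 45 bins (64.3%) turned from B to A, where 9.47% of the bins of the genome did, and 0 turned from A to B (genome 0.713%). That comparison chose the hub, so nothing is read from its shares. With shA1 7 turned to A (genome 8.01%) and 0 to B (1.17%), so the hub was near the background there. In OIS-shA1 minus OIS 41 turned to B (genome 3.13%) and 0 to A (1.52%). In Grow-shA1 minus Grow 4 turned to B (1.49%) and 1 to A (1.79%). Both hairpin comparisons use a map that chose the hub.

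The component itself followed genes less well in OIS. There the first component of the chromosome had a correlation of 0.17 with gene starts (0.30 in Grow), whereas the second had 0.32 and was negative in all 70 hub bins. When the q arm was taken alone, the first OIS component had a correlation of 0.023 with gene starts, so its orientation was not settled. As oriented by gene starts it turned 1 hub bin to A and 21 to B in OIS minus Grow, and oriented by the Grow map instead it changed the sign of 48, so the direction of the hub's change is not settled by it. Outside the hub, B to A changes in OIS minus Grow numbered 20 of 426 q-arm bins (4.69%) and 42 of 497 p-arm bins (8.45%), below the 9.47% of the genome. A to B changes numbered 16 of the 426 q-arm bins (3.76%), above the 0.713% of the genome, and 0 on the p arm.

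Genes of senescence programmes elsewhere on the chromosome were read as the contact of their bins with the hub. Matrix genes of the q arm (9 bins) had a median OIS minus Grow difference of -0.68, with 8 below 0, beside -0.54 over all q-arm bins outside the hub, and -0.29 with shA1 beside -0.36. LAMB3, a laminin chain, scored 0.26 with the hub in Grow, 0.62 in Grow-shA1, -0.96 in OIS and -0.52 in OIS-shA1, and TNN, a tenascin, 0.21, 0.48, -0.98 and -0.48. HMCN1, a hemicentin whose start lies just before the first edge, was the exception, at 0.23, 0.071, 0.83 and 0.16. Its RAS difference was 0.60 without and 0.089 with shA1.

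Cell cycle genes of the q arm (7 bins) had medians of -0.51 and -0.37. NEK2, a centrosomal kinase, scored 0.14, 0.27, -0.69 and -0.23, and NUF2, of the kinetochore, 0.21, 0.24, -0.44 and -0.11. The exceptions were KIF14, a mitotic kinesin, and UBE2T, a ubiquitin-conjugating enzyme of DNA crosslink repair, both beyond the last edge of the hub. KIF14 scored -0.27, -0.51, 0.26 and -0.10, differences of 0.53 and 0.41, and UBE2T -1.27, -1.33, -0.83 and -1.16.

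Secretory and inflammatory genes of the q arm (9 genes in 6 bins) were below 0 in all 6 bins, with medians of -0.52 and -0.27, where 362 and 368 of all 426 q-arm bins outside the hub were below 0. The bin of IL10 and IL19 scored -0.31, -0.38, -1.11 and -0.79 with the hub, and that of ATF3, a stress-induced transcription factor, -0.14, -0.15, -0.74 and -0.34. TGFB2, which lies in the gene-poor block beyond, scored 0.39, 0.46, 0.22 and 0.25. On the p arm the lists had medians of -0.047 (matrix, 6 bins), -0.27 (cell cycle, 6 bins) and -0.24 (secretory, 5 bins) in OIS minus Grow, beside -0.095 over the arm. HSPG2, CDC20 and E2F2 lay in bins that were not kept. These medians are descriptions and set no list apart from its arm.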

How the data were processed

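The 4 Hi-C samples (in-nucleus ligation of HindIII-cut chromatin) were processed by the submitters with HiC-Pro on hg19. The authors deposited 1 map per condition at 200 kb, with replicates pooled, iterative (ICE) correction and division by the contact usual at each distance, giving the deposited score. Values are log-like, of unstated base and prior. The bins file holds coordinates. The Grow and OIS maps belong to no sample of the series. Each balanced bin has the same total, and pairs not listed in a file were left out.

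Here the score of each pair listed in all 4 maps was used for bins with at least 50% of pairs listed in each map, over the autosomes and X. Chromosome 1 ended at 249250621, as in GRCh37, and 1143 of 1143 inner bin edges lay within 6 bases of a HindIII site. Distal means over 2 Mb apart. Genes are protein-coding starts of GENCODE v44 lifted to GRCh37. A and B are the sign of the first principal component of the Grow correlation matrix, oriented by gene starts. With 1 map per condition, no test, p-value or interval was possible, and differences are given with the SD over pairs or bins. Named genes are those starting in hub A bins, in the 5 highest and 5 lowest hub bins of OIS-shA1 minus Grow-shA1, the RGS family, ASPM, KIF14, PTGS2 and PTPRC, and lists of matrix, cell cycle and secretory genes. Some genes that the rule names are not reported here. The members, lists and comparisons were chosen with earlier results of these data known. The alternatives changed the pairs used, scaling, centring, limits, thresholds and filters. The functions were tested on simulated maps. Python 3.11.15, numpy 2.4.6, pandas 2.3.3, igraph 0.11.9 and matplotlib 3.10.9 were used.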

Additional observations from a re-analysis of the deposited data

Results flagged for a closer look

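The difference made by RAS had opposite signs without and with the hairpin in 7 results. With 1 map in each condition every such difference was untested. The bins of the 1 Mb just before the hub contacted it more in OIS minus Grow (0.32) and not with shA1 (-0.061), a gap of -0.38. Within the p-arm gene-poor block chr1:67199763-76002219 the differences were -0.084 and 0.23, a gap of 0.31, and within chr1:77396914-84596356 they were -0.24 and 0.17, a gap of 0.41. Among B-B pairs of the q arm without the hub they were 0.059 and -0.057, a gap of -0.12. The other gaps were near 0: -0.045 for the hub with p-arm B bins, -0.046 for strength of the p arm and -0.034 for strength of the q arm.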

How the results depend on the processing

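No paired analysis was possible because the replicates are pooled in the deposited maps, and for the same reason no replicate could be left out. Of 336 values under alternatives, 274 moved by less than the spread used (for means, the SD over single pairs or bins, a wide limit), 61 moved further and 1 called value reversed. The sign differed in 23, of which 20 were differences of strength. The mean contact change within the hub kept its sign in all 40 of its alternatives, and ranged from 0.65 to 1.28 in OIS minus Grow, 0.56 to 1.05 in OIS-shA1 minus Grow-shA1, -0.53 to -0.35 in OIS-shA1 minus OIS and -0.33 to -0.26 in Grow-shA1 minus Grow. The causes of the shifts below were not tested.

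Scaling each map by its SD at the same distance took the largest k to 4 and 4 on chromosome 1 (without and with shA1), to 3 and 4 on the q arm, and the hub's excess over the median gene-poor block in OIS minus Grow to 0.57. It took the share of hub pairs called higher to 29.8% and 25.3%, and of those called lower in OIS-shA1 minus OIS to 3.72%. RAS strength differences became -0.15 and -0.14 on the p arm and -0.13 and -0.098 on the q arm, that of the q arm without the hub reversed to -0.083, and OIS-shA1 minus OIS strength became 0.097 (p arm) and 0.098 (q arm). With unlisted pairs as 0, OIS minus Grow strength was -0.069 (p) and -0.060 (q), Grow-shA1 minus Grow 0.013 (p) and 0.033 (q), and OIS-shA1 minus OIS -0.023 (p). With compartments from each map, q-arm strength differed by 0.18 in OIS minus Grow, 0.072 in OIS-shA1 minus Grow-shA1 and -0.020 in OIS-shA1 minus OIS.

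Averaging changes over 3 by 3 pairs gave k of 25 and 18 on the chromosome, 9 and 11 on the p arm and 23 and 18 on the q arm, and 2% of pairs gave 7 on the p arm in OIS minus Grow. A threshold of 0.5 called 75.1% and 70.4% of hub pairs higher in the RAS comparisons, and 44.4% (OIS) and 26.5% (Grow) lower with the hairpin. Over all pairs more than 2 Mb apart the hub's excess over the median block was 1.14 and 0.77. With the component taken per arm, 22 hub bins (1 to A and 21 to B) and 413 q-arm bins changed sign in OIS minus Grow. Oriented by Grow, an alternative chosen after seeing the data, the numbers were 48 and 83. Under 0.6 gene starts per bin no other block lay on chromosome 1, so the hub's contact with one had no value. The files give no depth, and pairs between the arms were listed least completely.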
